A study of Homo sapiens with 8 samples.

Results

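The transcripts described here encode 9 proteins of the B-cell surface or its secretory pathway: CD79A, CD79B, CR2, CD22, CD72, PTPRC, CD37, FCER2 and FCRLA. They were chosen as all probe sets whose single gene symbol in the array annotation was one of these names, which gave 24 of 54675 probe sets. RNA came from cultures of SUP-B8 and NALM-6, established human lines described as acute lymphoblastic leukaemia. Each culture had been kept for 72 hours with DMSO vehicle or with GSK126 at 0.5 uM, a selective inhibitor of the histone methyltransferase EZH2. The 4 groups were thus SUP-B8 with DMSO, SUP-B8 with GSK126, NALM-6 with DMSO and NALM-6 with GSK126, each with 2 biological replicates per the labels. Each group rests on 1 cell line in culture, and the EZH2 genotype of the lines is not stated in the labels used here.

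B cells sense antigen through surface immunoglobulin, which cannot signal by itself and is paired with a heterodimer of CD79A and CD79B that carries the activation motifs. Other surface proteins set the threshold of that signal. CR2, the complement receptor CD21, lowers it when antigen carries complement fragments, whereas CD22 and CD72 recruit phosphatases and raise it. The phosphatase CD45, encoded by PTPRC, removes an inhibitory phosphate from Src-family kinases and so keeps the receptor responsive. EZH2 is the enzyme of the Polycomb repressive complex that methylates histone H3 at lysine 27, a mark of silenced genes.

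Values are log2 expression values as deposited, where a difference of 1 is a doubling. The medians of all probe sets lay between 7.18 and 7.24 on the 8 arrays. No detection calls were used here, so a group with both arrays under their medians counts here as not shown above background. Array values cannot rank different genes by abundance, so levels are compared only within a probe set. The arrays labelled NALM-6 had DNTT, the terminal transferase of lymphoid precursors, at 6.86 ± 0.04 (SD, n = 2) under DMSO, below their medians, whereas SUP-B8-labelled DMSO arrays gave 13.67 ± 0.13 (SD, n = 2). As background, NALM-6 is known as a precursor line positive for this enzyme, so an exchange of the line labels is possible and was not tested. It would turn every difference between the labels and assign each response to the other line, so groups are called by their labels throughout. Among 7 precursor markers, 7 lay above the medians on both DMSO arrays labelled SUP-B8 and 2, MME and CD34, on those labelled NALM-6. All 5 B-lineage markers measured, MS4A1, PAX5, EBF1, BLNK and CD74, lay above the medians in every group. Of 6 monocyte and granulocyte markers, 0 did so in any group. Of 4 stroma markers, COL1A1 and DCN did so in every group, as did HBB and PF4 of 3 erythroid and platelet markers. A reading above the medians therefore does not by itself show that a gene was expressed.

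Under DMSO, CD79A, CD79B, CD22, CD72 and FCRLA were lower in the arrays labelled SUP-B8. CR2, PTPRC and CD37 were not shown to be above background there, and could be tested only because of their levels under the NALM-6 label. GSK126 was followed by lower CD22, CD72 and CR2 and by higher CD79B in the arrays labelled NALM-6. In the arrays labelled SUP-B8 it was followed by no called change. The responses of CD22, CD72 and CD79B differed between the labels whichever array was left out. FCER2, the low-affinity IgE receptor CD23, was below the medians on all 8 arrays.

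**Figure D1:**
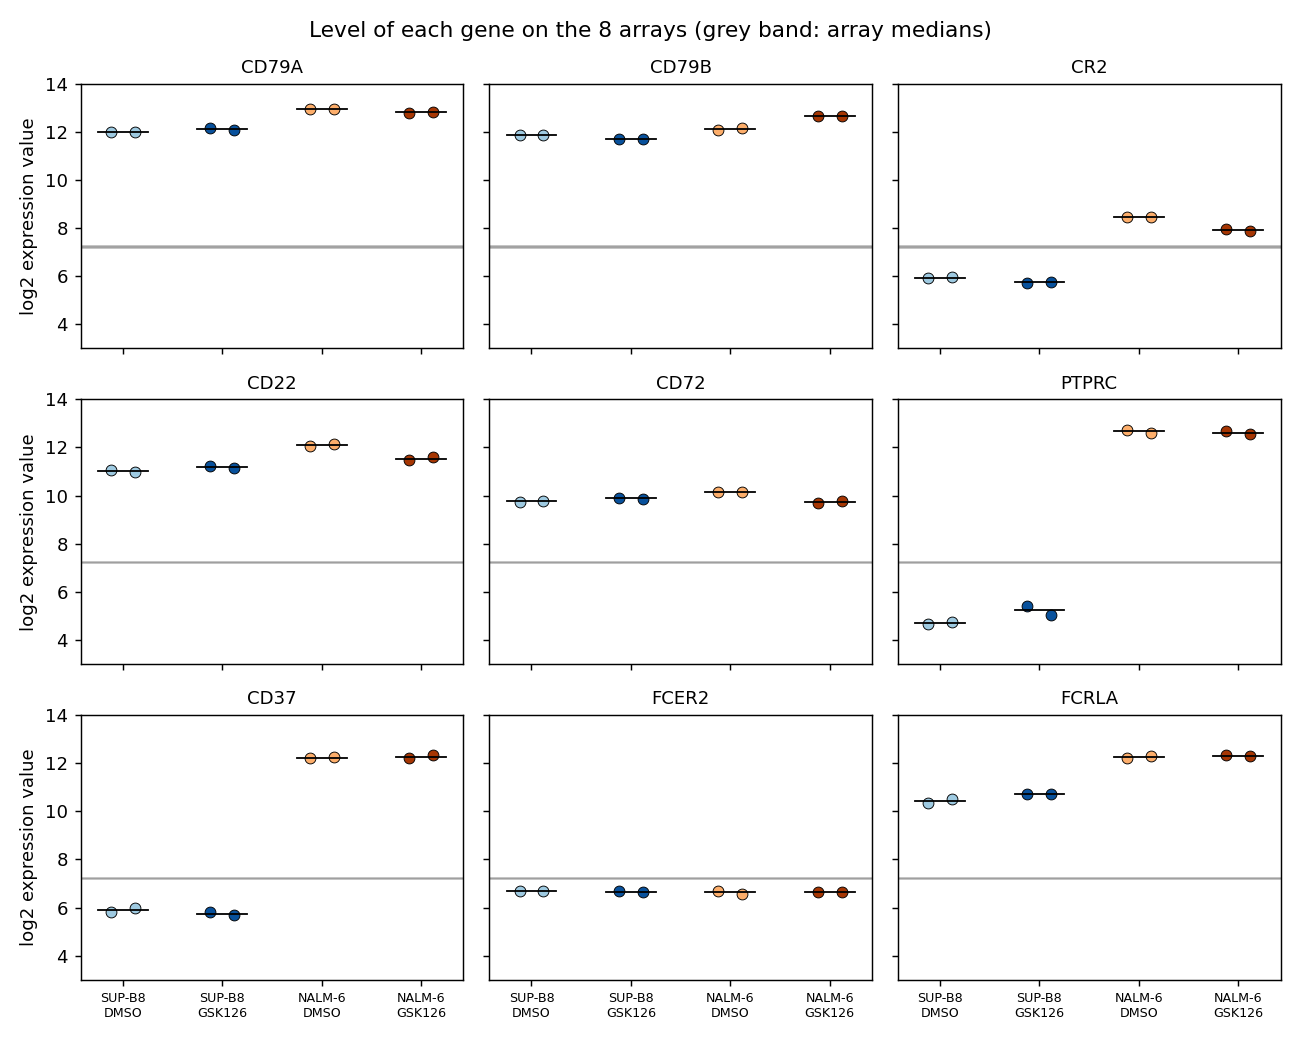
Each panel plots the log2 expression value (y axis) of the probe set that represents 1 gene on the 8 arrays, grouped by label and treatment (x axis). Points are arrays, short lines are means of 2 arrays and the grey band spans the array medians; PTPRC and CD37 lie below it on the arrays labelled SUP-B8 and above it on those labelled NALM-6.

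A gene was tested if at least 2 arrays lay above their median in its brightest probe set. This held for 8 of the 9 genes, FCER2 being the exception, and for 17 of the 24 probe sets taken singly. CR2, PTPRC and CD37 passed through the arrays labelled NALM-6 alone, so a difference between the labels was built into their passing. Under DMSO, 8 of 8 tested genes were called lower under the SUP-B8 label, with an adjusted p under 0.05 (limma, Benjamini-Hochberg). Of all 13161 genes 68.3% were called in either direction and 30.6% lower. The groups did not overlap for 8 of 8 genes, against 81.1% of all genes. For CR2, PTPRC and CD37 these calls were fixed in part by the filter, so the counts are no support for a shared direction. For GSK126 against DMSO in the arrays labelled NALM-6, 3 were called lower and 1 higher. The background was 39.3% of genes called, 18.5% lower and 20.8% higher, so the 4 of 8 called lay near it. The treatments did not overlap for 5 of 8 genes, against 68.8%. In the arrays labelled SUP-B8, limma called 0 of 8, against 2.25% of all genes. At an unadjusted p under 0.05 there were 6 of 8, against 16.7%, and the treatments did not overlap for 8 of 8, against 49.5%. Both counts include CR2 and PTPRC, and the count without overlap also CD37. The readings of these genes there lay below the medians and show no response. The difference of the responses was called for 6 of 8 genes, 5 higher and 1 lower (SUP-B8 minus NALM-6), against 25.4% of all genes, 10.9% higher and 14.5% lower. The 6 include CR2 and PTPRC, with levels below the medians under the SUP-B8 label. Tested singly, 8 of 17 probe sets were called after GSK126 under the NALM-6 label, 7 lower and 1 higher, against 39.3% of 30199 probe sets called in either direction. Under the SUP-B8 label limma called 0 of 17, against 1.16%. The responses differed for 11 of 17, against 24.5%. Under DMSO 16 of 17 were lower, against 67.8% called and 31.9% lower. Of the 17, 6 passed through the arrays labelled NALM-6 alone, namely those of CR2, CD37 and PTPRC and the dimmest of CD22. That of CD22 passed through the DMSO arrays alone. The probe-set counts were thus also fixed in part by the filter and are no support for a shared direction. The median log2 difference over the tested genes was -0.10 in the arrays labelled NALM-6 and 0.12 in those labelled SUP-B8, beside 0.02 and -0.02 over all genes tested. In bulk RNA, fewer cells that express a gene and less RNA per cell cannot be told apart.

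Of the signalling chains, CD79B rose after GSK126 in the arrays labelled NALM-6, while CD79A gave a small difference that was not called. CD79B read 12.06 and 12.15 under DMSO and 12.67 and 12.66 under GSK126. Both treated arrays were the higher ones, and the rise was 0.55 ± 0.05 (SE), or 1.47-fold (adjusted p = 8.01e-05). SUP-B8-labelled arrays read 11.87 and 11.88 under DMSO and 11.72 and 11.68 under GSK126. There the treated arrays were the lower ones, but the difference of -0.17 ± 0.05 was not called (adjusted p = 0.143). The responses of CD79B differed between the labels by -0.73 ± 0.07 (SUP-B8 minus NALM-6, adjusted p = 0.000294).

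Under DMSO the 2 labels lay close for CD79B, with the arrays labelled SUP-B8 lower by 0.23 ± 0.05 (adjusted p = 0.00326). Under GSK126 that gap was 0.96. The other CD79B probe sets were dim, and the one of them that was tested differed by 0.03 between treatments in the arrays labelled NALM-6. The mean of all CD79B probe sets rose by 0.22, still called, and its gap under DMSO of -0.09 was not.

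CD79A read 12.94 and 12.95 under DMSO and 12.79 and 12.84 under GSK126 in the arrays labelled NALM-6. The groups did not overlap, yet the difference of -0.14 ± 0.05 missed the threshold (adjusted p = 0.0606). It was called with a stricter filter (adjusted p = 0.035), centred arrays (0.0485), a trended robust prior (0.00462) and the mean of probe sets (0.0159). Its other probe set fell by 0.22 and was called when probe sets were tested singly (adjusted p = 0.0173). SUP-B8-labelled arrays read 12.01 and 11.98 under DMSO and 12.15 and 12.08 under GSK126, a difference of 0.12 ± 0.05 in the other direction that was not called (adjusted p = 0.274). The difference of the responses was called at 0.26 ± 0.07 (adjusted p = 0.0301), a call lost in 7 of the 8 omissions of 1 array, all except that of SUP-B8-labelled DMSO replicate 1. It was also lost with the replicate number as a block (adjusted p = 0.0512). Under DMSO, CD79A was lower in the arrays labelled SUP-B8 by 0.95 ± 0.05, or 1.93-fold, and by 1.07 in the other probe set.

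The receptor that CD79A and CD79B accompany was measured through 8 heavy, light and surrogate light chain genes. Of these, 3 rose and 1 fell after GSK126 in the arrays labelled NALM-6, where 39.3% of all genes were called, with a median of 0.25. The rises were those of IGHD (0.33 ± 0.06), IGLC1 (0.28 ± 0.05) and IGHM (0.24 ± 0.05). The fall was that of IGLL1, with both levels below the medians, so it shows no response. VPREB1, not called, also lay below the medians in both treatments there. These genes were tested only because of their levels under the SUP-B8 label, and their differences enter the median of 0.25. IGHD alone was called under the SUP-B8 label, at 0.64 ± 0.06.

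CR2 was measured by 1 bright probe set, and its second stayed below the medians on every array. The bright one read 8.44 and 8.44 under DMSO and 7.98 and 7.86 under GSK126 in the arrays labelled NALM-6. CR2 therefore fell by 0.52 (SE 0.05, adjusted p = 0.000165), a 1.44-fold lower level without overlap between treatments. SUP-B8-labelled arrays read 5.94, 5.95, 5.72 and 5.76, all below the medians, so no size is given for a response there. Against that background CR2 was higher in the arrays labelled NALM-6 by at least 1.23 under DMSO, a description, since that level alone let it be tested. A difference of responses of 0.31 ± 0.08 was called (adjusted p = 0.0207), but it sets a fall between measured levels against levels below background. That call was lost without either GSK126 array labelled SUP-B8 or without NALM-6-labelled GSK126 replicate 2.

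CD22, a sialic acid-binding inhibitory receptor, fell in each of its 4 probe sets under the NALM-6 label. Its brightest probe set read 12.05 and 12.15 under DMSO and 11.48 and 11.59 under GSK126 in the arrays labelled NALM-6. The treated arrays were both lower, and the level fell by 0.57 (SE 0.06, adjusted p = 0.000253), or 1.49-fold. All 4 probe sets were called lower when tested singly, and their differences ran from -1.10 to -0.57. One of these probe sets read 10.15 and 10.17 under DMSO and 9.11 and 9.18 under GSK126, and CD22 fell by 1.01 in it. The lowest value belonged to a dimmer probe set that ended below the medians and stands for a fall of at least 1.03. That probe set was tested only because of its level in the DMSO arrays labelled NALM-6. Its fall is therefore a description and adds no support to the other probe sets.

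Under the SUP-B8 label CD22 read 11.08 and 11.0 under DMSO and 11.23 and 11.14 under GSK126. The treated arrays were higher by 0.14 ± 0.06, which was not called (adjusted p = 0.312; 95% interval of the difference -0.00 to 0.29, not adjusted). Of the other probe sets, 2 gave 0.11 and 0.08 with overlapping treatments and the dimmest lay below the medians, and the mean of probe sets differed by 0.02. The responses differed by 0.72 ± 0.09 (adjusted p = 0.00107), and that call held in all 8 omissions of 1 array. In the brightest probe set the order of CD22 levels by label was NALM-6 with DMSO, NALM-6 with GSK126, SUP-B8 with GSK126 and SUP-B8 with DMSO, with no overlap between neighbours. The SUP-B8-labelled treatments overlapped in 2 of the other probe sets. The gap between the labels was 1.06 under DMSO and 0.35 under GSK126.

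CD72, a C-type lectin with an inhibitory tail that binds the semaphorin SEMA4D, was represented by a single probe set. It read 10.16 and 10.14 under DMSO and 9.70 and 9.79 under GSK126 in the arrays labelled NALM-6, and fell by 0.41 (SE 0.05, adjusted p = 0.000581). In those labelled SUP-B8 it read 9.73 and 9.79 under DMSO and 9.92 and 9.85 under GSK126, a difference of 0.13 ± 0.05 that was not called (adjusted p = 0.287). By label, the NALM-6 arrays with DMSO thus held the highest CD72 level and the SUP-B8 arrays with GSK126 the next. The remaining groups, labelled NALM-6 with GSK126 and SUP-B8 with DMSO, overlapped. The responses differed by 0.54 ± 0.08 (adjusted p = 0.0018), also in all 8 omissions of 1 array. Tested against a change of 1.2-fold, neither the fall (adjusted p = 0.107) nor the difference of responses (adjusted p = 0.0506) was called.

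**Figure D2:**
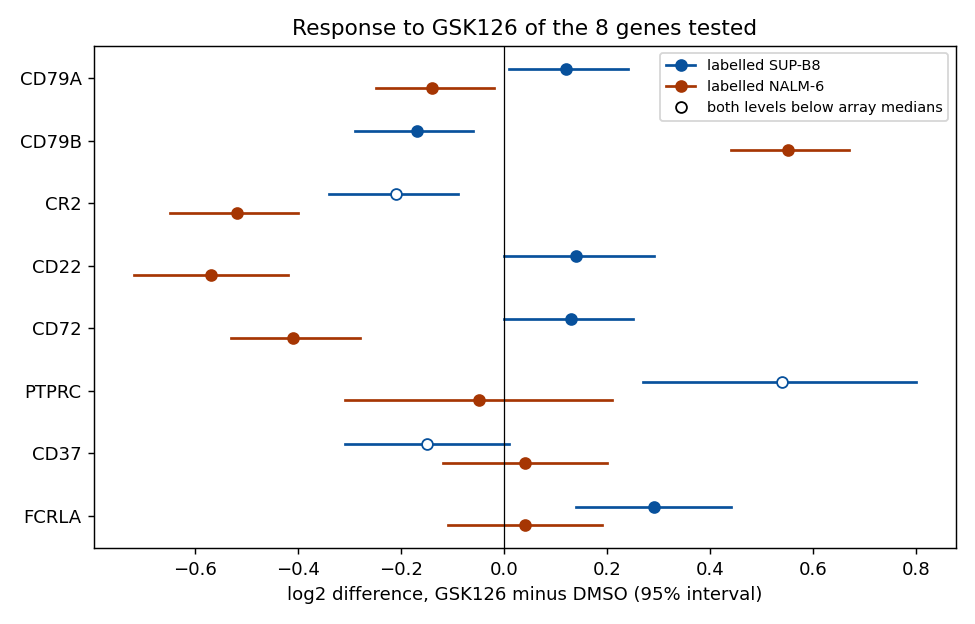
The log2 difference of GSK126 minus DMSO (x axis) is plotted for the 8 genes tested (y axis), in blue for arrays labelled SUP-B8 and in orange-brown for those labelled NALM-6. Points are model estimates, bars are 95% intervals not adjusted for the number of genes, and open points mark genes whose levels lay below the array medians in both treatments; CD22 lies at -0.57 and CD79B at 0.55 in the arrays labelled NALM-6.

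The 3 genes lowered in the arrays labelled NALM-6 and PTPRC, which was not, are represented by the 250 bases before their annotated start, because Polycomb complexes are best known at CpG-rich starts. The sequences are those of RefSeq on GRCh38.p14, read 5′ to 3′ on the gene's strand, with CG dinucleotides in capitals. Windows of this kind were found for 7 of the 9 genes. The positions are chr1:207454078-207454327 for CR2 (plus strand), chr19:35328937-35329186 for CD22 (plus strand), chr9:35618414-35618663 for CD72 (minus strand) and chr1:198638790-198639039 for PTPRC (plus strand).
CR2: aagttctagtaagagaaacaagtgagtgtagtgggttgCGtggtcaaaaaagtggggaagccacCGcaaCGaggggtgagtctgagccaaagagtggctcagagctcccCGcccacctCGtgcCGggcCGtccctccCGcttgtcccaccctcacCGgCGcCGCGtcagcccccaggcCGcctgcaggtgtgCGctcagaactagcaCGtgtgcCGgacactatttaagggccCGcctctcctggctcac
CD22: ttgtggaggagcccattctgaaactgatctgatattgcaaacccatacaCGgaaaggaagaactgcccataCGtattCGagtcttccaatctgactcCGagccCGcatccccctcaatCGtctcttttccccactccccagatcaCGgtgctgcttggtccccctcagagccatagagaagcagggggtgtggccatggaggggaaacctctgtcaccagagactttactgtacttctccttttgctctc
CD72: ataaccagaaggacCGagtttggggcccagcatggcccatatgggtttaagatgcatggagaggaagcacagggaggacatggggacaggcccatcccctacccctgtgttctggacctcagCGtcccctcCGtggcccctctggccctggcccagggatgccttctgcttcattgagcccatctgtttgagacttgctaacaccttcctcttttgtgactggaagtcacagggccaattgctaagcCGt
PTPRC: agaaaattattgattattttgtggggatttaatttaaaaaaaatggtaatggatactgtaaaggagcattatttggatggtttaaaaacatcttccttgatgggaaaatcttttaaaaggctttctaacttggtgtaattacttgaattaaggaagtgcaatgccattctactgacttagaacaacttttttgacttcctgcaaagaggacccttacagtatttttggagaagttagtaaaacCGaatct
CR2 held 17 CG dinucleotides, a number reached by 39.0% of 35116 such windows, whose median was 11. CD22 held 7 and CD72 held 4, reached by 58.9% and 70.7% of windows. PTPRC held 1, reached by 93.9%. The windows of the 3 genes that fell thus held between 4 and 17, and a link to the responses was not tested. The 6-letter motif GAGGAA, which occurs in sites of the ETS-family factor PU.1, occurred 2 times in the CD72 window over both strands. It was absent from those of CR2, CD22 and PTPRC, while 23.6% of all windows held it. Among windows not printed, it occurred 1 time in that of FCRLA, which was not called after GSK126 under either label. Those of CD79A and FCER2 lacked it. A match of letters is a description and not a site.

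PTPRC, the phosphatase CD45, was bright under the NALM-6 label and below the medians under the SUP-B8 label. Its brightest probe set read 12.72 and 12.62 under DMSO and 12.69 and 12.55 under GSK126 in the arrays labelled NALM-6. These treatments overlapped, with a difference of -0.05 ± 0.11 (adjusted p = 0.759). Under the SUP-B8 label the same probe set read 4.65 and 4.75 under DMSO and 5.42 and 5.05 under GSK126, all below the medians. The other tested probe sets gave the same contrast between the labels. One averaged 5.54 ± 0.29 under the SUP-B8 label and 11.79 ± 0.07 under the NALM-6 label (SD, n = 2), with DMSO. The second averaged 5.48 ± 0.06 and 11.30 ± 0.05 (SD, n = 2). As bounds against the medians, the arrays labelled NALM-6 were higher by at least 5.47, 4.59 and 4.10 in these 3 probe sets. PTPRC was tested only because of its level under that label, so this gap is a description. A further 2 probe sets lay below the medians on every array, also in those labelled NALM-6.

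The PTPRC readings under the SUP-B8 label were higher with GSK126 in the brightest probe set, but all lay below the medians, so no size is given. The comparison was not called (adjusted p = 0.0582), except without SUP-B8-labelled GSK126 replicate 2 (adjusted p = 0.0337), with the replicate number as a block (adjusted p = 0.0499) and in 3 other alternative fits. In the other tested probe sets the treatments overlapped there. The difference of responses was called (adjusted p = 0.0303) on the same dim readings. That call was lost in 5 of 8 omissions of 1 array, those of any DMSO array and of NALM-6-labelled GSK126 replicate 2. As a mean over all 5 probe sets, PTPRC was called lower by 0.29 after GSK126 in the arrays labelled NALM-6 (adjusted p = 0.00248), with 2 of the 5 below background.

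**Figure D3:**
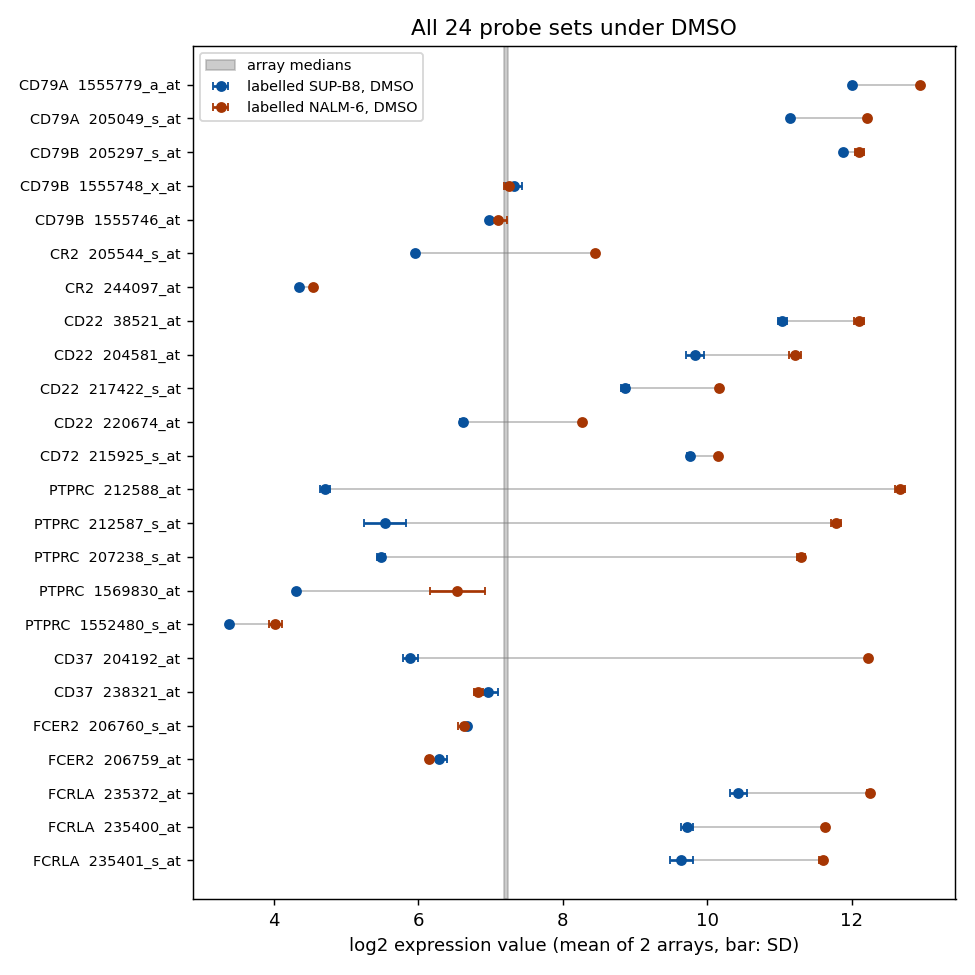
The log2 expression value (x axis) of all 24 probe sets (y axis, by gene and probe set name) is shown under DMSO, with points for the mean of 2 arrays of each label and bars for the SD. The grey band spans the array medians, and the 3 brightest PTPRC probe sets and 1 each of CD37, CR2 and CD22 cross it between the labels.

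CD37 is a tetraspanin, a membrane protein that organises receptors on mature B cells. Its bright probe set read 12.22 and 12.25 under DMSO and 12.23 and 12.32 under GSK126 in the arrays labelled NALM-6. The treatments overlapped and the difference was 0.04 ± 0.07 (adjusted p = 0.68; 95% interval -0.12 to 0.20, not adjusted). The arrays labelled SUP-B8 read 5.82, 5.97, 5.80 and 5.68, all below the medians, so that CD37 was higher by at least 5.03 in those labelled NALM-6 under DMSO. CD37, too, was tested only because of its level under that label, so the gap is a description. The second probe set lay below the medians on all arrays, between 6.66 and 7.06, and showed no such gap.

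Among 13 other tetraspanins the labels differed in both directions under DMSO, where 68.3% of all genes were called. Under the SUP-B8 label 7 were higher and 4 lower, with a median of 0.34. CD9 was higher there by at least 6.22 and TSPAN13 by at least 4.34, while TSPAN33 (-2.82 ± 0.05) and CD82 (-2.38 ± 0.08) were lower. CD9 and TSPAN13 were tested only because of their levels under the SUP-B8 label, so their gaps are descriptions. After GSK126 in the arrays labelled NALM-6, 2 rose and 5 fell, where 39.3% of all genes were called. TSPAN3 differed by 0.97 ± 0.05 and TSPAN33 by -0.71 ± 0.05. None was called in the arrays labelled SUP-B8 by limma, where the differences of CD9 (-0.23 ± 0.12) and CD82 (0.19 ± 0.08) were of largest size.

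FCRLA, an Fc receptor-like protein that stays inside B cells, was read by 3 probe sets. Its brightest one read 10.34 and 10.52 under DMSO and 10.73 and 10.71 under GSK126 in the arrays labelled SUP-B8. The groups did not overlap, and the difference of 0.29 ± 0.06 missed the threshold (adjusted p = 0.0716). The other 2 probe sets gave 0.21 and 0.25. In the arrays labelled NALM-6 it read 12.22 and 12.28 under DMSO and 12.32 and 12.28 under GSK126, and the difference of 0.04 ± 0.06 was not called (adjusted p = 0.643). The difference of responses of 0.24 ± 0.09 was not called either (adjusted p = 0.089), except without SUP-B8-labelled DMSO replicate 2 (0.33, adjusted p = 0.0242) and in 3 of the alternative fits. Under DMSO, FCRLA was lower in the arrays labelled SUP-B8 by 1.82 ± 0.06, or 3.54-fold (adjusted p = 3.91e-08), and the others gave -1.91 and -1.96. One of them was called for the difference of responses (0.27 ± 0.08, adjusted p = 0.0425 over probe sets).

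FCER2 read between 6.58 and 6.68 in its brighter probe set and between 6.13 and 6.40 in the other, below the medians on all 8 arrays. It was therefore neither tested nor ordered between groups.

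The other members of the Fc receptor-like family were followed through 5 tested genes. After GSK126 in the arrays labelled NALM-6, FCRL1 (-1.0 ± 0.19), FCRL2 (-0.86 ± 0.11) and FCRL3 (-0.56 ± 0.11) fell and 0 rose, with a median of -0.56 beside 0.02 over all genes. Of all genes 18.5% were called lower in that comparison. Under DMSO 4 of the 5 were lower and FCRLB (0.71 ± 0.07) was higher in the arrays labelled SUP-B8, beside 30.6% of all genes lower. FCRL3 was higher in the arrays labelled NALM-6 by at least 3.70 and FCRL2 by at least 3.51. FCRL1, FCRL2 and FCRL3 were tested only because of their levels under the NALM-6 label. Their gaps are therefore descriptions, and the count is no support for a shared direction.

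Inhibitory receptors that carry the same kind of tail motif as CD22 and CD72 did not move one way. Of 12 tested, 3 fell and 2 rose in the arrays labelled NALM-6, a share near the 39.3% of all genes called, with a median of 0.10. LAIR1, a collagen receptor, fell by 0.89 (SE 0.08), and FCRL2 and FCRL3 are the other falls. CEACAM1 rose by 0.91 ± 0.14, and FCGR2B, the inhibitory IgG receptor, rose from below the medians by at least 0.55. FCGR2B lay above the medians in no other group, so it was tested only because of these treated arrays. Its rise is thus a description. Under the SUP-B8 label limma called 0 of these 12, and the differences of largest size were those of FCRL3, below the medians, and SIGLEC10 (-0.25 ± 0.10).

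**Figure D4:**
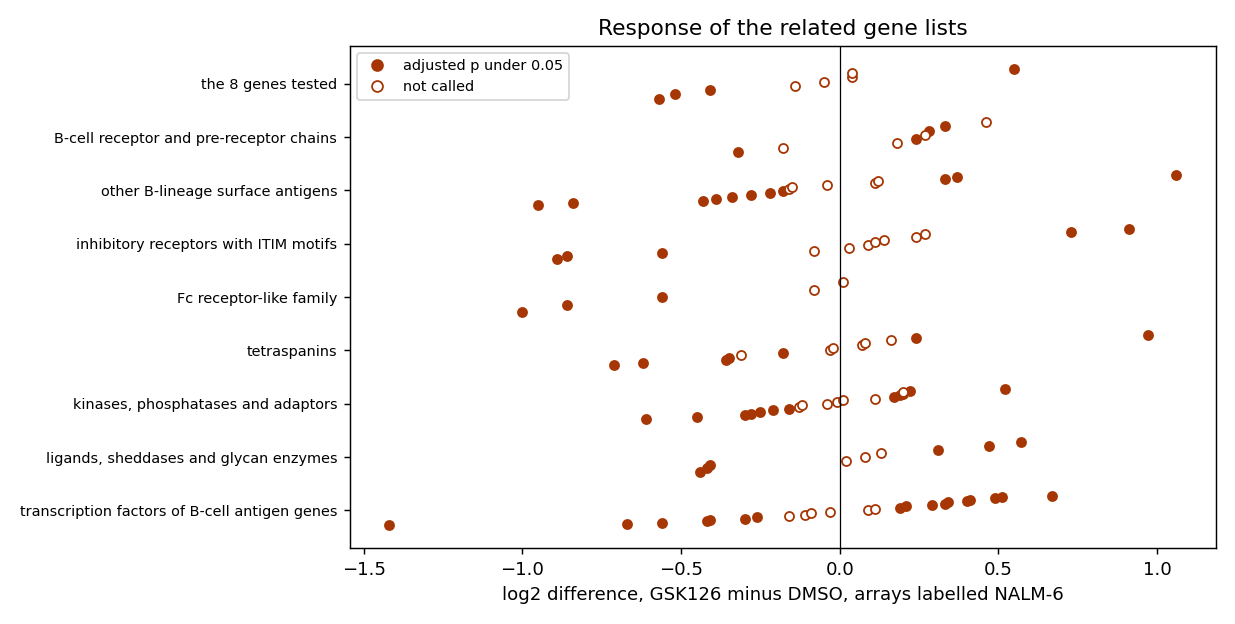
The log2 difference of GSK126 minus DMSO in the arrays labelled NALM-6 (x axis) is plotted for the 8 genes tested and for each related gene list (y axis). Each point is a gene, filled where called at an adjusted p under 0.05 by limma; MS4A1 lies at -0.95 and IFITM1 at 1.06 among the other B-lineage surface antigens.

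Of 16 other B-lineage surface antigens tested in the arrays labelled NALM-6, 8 were called lower and 3 higher, beside 18.5% and 20.8% of all genes, with a median of -0.17. One of the higher ones, CD24, lay below the medians in both treatments. MS4A1, which encodes CD20, fell by 0.95 (SE 0.06), the Toll-like receptor homologue CD180 by 0.84 (SE 0.05) and CD27 by 0.43 (SE 0.07). IFITM1, an interferon-induced membrane protein, rose by 1.06 ± 0.12. Under DMSO 12 of the 16 were lower and 4 higher under the SUP-B8 label, with a median of -1.91. Of all genes 68.3% were called there and 30.6% lower. CD86 was tested only because of its level under the NALM-6 label and CD24 only because of that under the SUP-B8 label. MS4A1 was the one called in the arrays labelled SUP-B8 after GSK126, at 1.07 ± 0.06.

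Enzymes and adaptors that act on or after these receptors were called in both directions in the arrays labelled NALM-6. Of 19 tested, 5 were higher and 7 lower, where 39.3% of all genes were called, with a median of -0.04. PTPN6, which encodes SHP-1, the phosphatase recruited by CD22 and CD72, fell by 0.61 (SE 0.05, adjusted p = 7.32e-05). The kinase FYN, a substrate of CD45, rose by 0.52 ± 0.05, and the adaptor PAG1 and the phosphatase PTPN22 fell by 0.45 and 0.30. Under DMSO 12 of the 19 were lower in the arrays labelled SUP-B8 and 5 higher, beside 30.6% of all genes lower. Among the lower ones, FGR was tested only because of its level under the NALM-6 label. PTPN22 (-2.48 ± 0.05) and BLK (-1.67 ± 0.07) were lower, and PAG1 (1.38 ± 0.06) and CD2AP (0.76 ± 0.05) higher. In those arrays GSK126 was followed by a rise of FYN (0.27 ± 0.05) and a fall of PIK3CD (-0.25 ± 0.05).

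Ligands, shedding enzymes and glycan enzymes of these receptors were followed through 9 tested genes. Of these, 3 rose and 3 fell in the arrays labelled NALM-6, where 39.3% of all genes were called. SEMA4D, the ligand of CD72, rose by 0.57 ± 0.05, and in the arrays labelled SUP-B8 it rose by 0.27 ± 0.05 (adjusted p = 0.0433). ST6GAL1, which makes the sialic acid linkage that CD22 binds, fell by 0.42 (SE 0.05) in the arrays labelled NALM-6. LGALS1 rose by 0.47 ± 0.05 and the interleukin receptor IL4R fell by 0.44 (SE 0.07) there.

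Transcription factors known to act on B-cell antigen genes were called in both directions in the arrays labelled NALM-6. Of 23 tested, 10 were higher and 7 lower, where 39.3% of all genes were called, with a median of 0.09. NFATC1 fell by 1.42 (SE 0.06), MEF2C by 0.67 (SE 0.05) and SPIB by 0.56 (SE 0.06), while XBP1, a factor of the secretory programme, rose by 0.67 ± 0.06. Under the SUP-B8 label, SPIB (0.53 ± 0.06), IKZF3 (0.46 ± 0.06) and NOTCH2 (0.27 ± 0.05) rose. Under DMSO 15 of the 23 were lower there and 7 higher, where 68.3% of all genes were called and 30.6% lower. IRF8 (-4.71 ± 0.06) and SPIB (-3.37 ± 0.06) were among the lower ones, and BACH2 (1.95 ± 0.05) and XBP1 (1.41 ± 0.06) among the higher ones.

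The genes whose pattern over the 8 arrays was most like that of each member were found by the root mean square distance between values centred on each gene's mean. For CD22 these were TLR10 (0.059 log2 units), SIAH2 (0.067) and DYRK1A (0.070). LRBA (0.041), MTA1 (0.051) and PPP1R16B (0.053) were nearest to CD72. S100A4 (0.061), SOS1 (0.063) and TMEM39A (0.063) were nearest to CD79B. For CR2 they were ELL3 (0.091), CLEC2D (0.093) and CD48 (0.094). LY75 (0.214), RGS13 (0.325) and SEL1L3 (0.330) stood nearest to PTPRC. PTPRC, CR2 and CD37 read below the medians under the SUP-B8 label, and the part of such readings in the distances was not tested. NIBAN1 (0.144), DNAJC15 (0.144) and MEST (0.152) were nearest to CD37. For CD79A they were GATAD1 (0.041), TSG101 (0.041) and ZBTB20 (0.042). SEPTIN1 (0.05), H2BW4P (0.071) and ICA1L (0.08) were nearest to FCRLA.

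Markers of other cell types were read on the same arrays. The summed level of 7 T-cell markers lay between 9.84 and 10.04 log2 units on all arrays, and 3 of them, CD3D, CD3E and CD5, lay above the medians in every group. For 5 NK-cell markers the sum lay between 9.68 and 9.80 in the arrays labelled SUP-B8. In those labelled NALM-6 it lay between 10.67 and 10.71 under DMSO and between 10.04 and 10.08 under GSK126, with PRF1 averaging 10.20 and 9.15. KLRD1, GNLY and NKG7 were below the medians in the arrays labelled NALM-6. The part of these genes in the falls of CD22, CD72 and CR2 was not tested.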

How the data were processed

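Biotin-labelled RNA was hybridized to Affymetrix arrays, and the authors deposited log2 values for every probe set. The submitters' processing notes name MAS5 and RMA without saying which made these values. The log2 unit and the normalization by the authors between arrays were read from the deposited values, which were not transformed, so a shift common to most transcripts is hidden. Probe sets with 1 symbol in the platform annotation were named (41097 of 54675). A gene was represented by its probe set of highest mean and tested if at least 2 of 8 arrays lay above their medians. All 8 arrays entered 1 fit in limma version 3.58.1 (R version 4.3.3), with 1 mean per group, 4 residual degrees of freedom and moderated variances. Benjamini-Hochberg adjustment ran over 13161 genes, or over 30199 probe sets for probe sets tested singly. Values after ± are SE for differences and SD for levels. With 2 arrays against 2 all calls rest on the model, and precision is limited by the number of arrays. Bounds are distances from the brighter group's mean to the array medians of the dimmer group. The procedure was tested on simulated data with seeded changes of 1 log2 unit in 1 group and no difference between the lines. Recovery of smaller changes was not tested. The 9 genes and the related lists were chosen with earlier results of these data known. Listed genes were named by size, up to 4 called per list. CD24, CD2AP, PAG1, BACH2 and XBP1 under DMSO or below the medians were named after their values were seen. Results for genes without a named probe set were not analysed here. Python version 3.11.15 prepared the tables.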

Additional observations from a re-analysis of the deposited data

Results flagged for a closer look

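The difference of the GSK126 responses between the 2 labels was itself tested. It was called for 6 of the 8 tested genes (limma, adjusted p under 0.05), where it was called for 25.4% of all genes. The differences of the responses, SUP-B8 minus NALM-6, were 0.72 for CD22, 0.54 for CD72, 0.26 for CD79A, -0.73 for CD79B, 0.31 for CR2 and 0.59 for PTPRC. Those of CR2 and PTPRC set levels in the arrays labelled NALM-6 against levels below the array medians in those labelled SUP-B8, so they show no response there and the count of 6 is not set against that share as a result. For CD72 and CD79A the treated arrays were the higher ones under the SUP-B8 label and the lower ones under the NALM-6 label, and for the brightest CD79B probe set the reverse. For CD22 this held in the brightest of 4 probe sets. The call for CD79A was lost in 7 of the 8 omissions of 1 array, that for PTPRC in 5 and that for CR2 in 3. With 2 arrays a group, no single array could be singled out as standing apart.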

How the results depend on the processing

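The falls of CD22, CD72 and CR2 and the rise of CD79B in the arrays labelled NALM-6 kept their call in all 8 omissions of 1 array and under both other scalings. CD72 lost its call against a 1.2-fold change, and CR2 was too dim to be tested as a mean of probe sets or with the stricter filter, under which CD79A was called. In the arrays labelled SUP-B8 the count of called genes among the 9 went from 0 to 2 with a stricter filter, 1 with renewed quantile normalization, 1 with centred arrays, 3 with a trended robust prior and 1 with the replicate block, and lay between 0 and 1 when arrays were left out. The genes concerned were FCRLA, PTPRC and CD79B. Singly tested probe sets gave 1, 1, 1 and 6 in the first 4 settings, and 0 to 1. For the difference of responses the counts were 2 genes and 5 probe sets against a 1.2-fold change, 7 probe sets without a filter, and 3 to 5 genes and 7 to 10 probe sets with an array left out. Over all genes, the 296 calls in the arrays labelled SUP-B8 became 160 without a filter, 777 with the trended robust prior, 12 against a 1.2-fold change, 191 with only the 4 arrays compared, 177 with probe sets as rows, and 27 to 217 with an array left out. Against a 1.2-fold change 1472 of 5178 remained in number for NALM-6 and 929 of 3343 for the difference of responses, where centring gave 1562 higher and 1379 lower against 1440 and 1903. Uncalled differences near 0 in the arrays labelled NALM-6 changed sign: PTPRC 0.01 with quantile normalization, and 0.00 and 0.01 without DMSO replicate 1 or GSK126 replicate 2 (-0.12 to 0.01 over all omissions). The same held for CD37, at -0.00 without GSK126 replicate 2 (up to 0.09 in other omissions) and -0.01 as a mean of probe sets, and for FCRLA, at -0.02 as a mean of probe sets. The cause of these changes was not tested. Deviations of equal replicate numbers correlated at r = -0.042 (SUP-B8), -0.018 (NALM-6), 0.13 (DMSO) and 0.036 (GSK126). The value largest in size was -0.199, for SUP-B8 with GSK126 and NALM-6 with DMSO. With 2 arrays a group these values cannot show whether equal numbers share more than the number. Among the differences of responses the replicate block ended that of CD79A.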
